A study of Mus musculus with 8 samples.

Results

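The genes described here are 9 matrix metalloproteinases, Mmp2, Mmp3, Mmp7, Mmp8, Mmp9, Mmp10, Mmp12, Mmp13 and Mmp14, and the inhibitor gene Timp1, which make 10 of the 22180 genes measured with a probe set of a single gene symbol. Each gene was matched by its symbol in the platform annotation, and a gene with several probe sets was represented by the one chosen by the highest mean over all 8 arrays. This choice mattered for Mmp7 alone, which had 2 probe sets. The list itself was drawn up with earlier results of these arrays known, so the number of its genes that differed is a description and not a test.

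RNA came from the middle colon of 8 female mice aged 9 weeks, of a C57BL/6 line carrying the allele Trim58tm2313Arte. Colitis was induced in both groups with 4.0% dextran sodium sulfate (DSS), a polysaccharide that injures the colon lining, in the drinking water for 7 days, followed by plain water for 5 days and collection on day 12. 4 mice were Trim58+/+ (wild type) and 4 were Trim58-/- (knockout, lacking the gene in the whole animal), and each mouse gave 1 array. Both groups received DSS and untreated colon was not analysed here, so the comparison asks how the proteases differed between genotypes within colitis. Values are array signals on the log2 scale, where a difference of 1 is a doubling, and the number of arrays limits their precision.

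Matrix metalloproteinases (MMPs) are zinc-dependent enzymes that are made with an inhibitory propeptide and cut collagens, basement membrane, other proteases and cytokines once that propeptide is removed. In the inflamed gut they come from several sources: neutrophils store collagenase and gelatinase in granules, while fibroblasts, macrophages and epithelium at the wound edge transcribe others on demand. Tissue inhibitors of metalloproteinases (TIMPs) bind the active enzymes, and Timp1 is the inducible member of that family. Many MMP promoters are known to be driven through sites for AP-1, the Fos and Jun transcription factors, close to a TATA box.

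Of the 10 genes, 6 lie in one uninterrupted run of MMP genes on mouse chromosome 9, in the order Mmp13, Mmp12, Mmp1b, Mmp3, Mmp1a, Mmp10, Mmp8, Mmp27, Mmp20 and Mmp7, which are 10 neighbouring protein-coding genes in the RefSeq annotation. The sequences just upstream of 5 of them are shown because the 4 called genes of the run and Mmp3 are among them and because the positions of AP-1 and TATA letters differ among them. They are the 130 bases before the RefSeq transcription start (GRCm38.p6), written 5′ to 3′ in lower case, with capitals for the AP-1 letters TGAGTCA, read on both strands (TGACTCA on the other), and for the TATA letters TATAAA, read on the gene's strand.
Mmp10, chr9:7502212-7502341 (+ strand): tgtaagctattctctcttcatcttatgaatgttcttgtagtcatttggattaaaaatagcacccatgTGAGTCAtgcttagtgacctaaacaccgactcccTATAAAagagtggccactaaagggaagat
Mmp3, chr9:7445692-7445821 (+ strand): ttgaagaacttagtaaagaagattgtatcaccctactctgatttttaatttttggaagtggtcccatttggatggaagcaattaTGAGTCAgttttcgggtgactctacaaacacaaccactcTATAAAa
Mmp13, chr9:7272384-7272513 (+ strand): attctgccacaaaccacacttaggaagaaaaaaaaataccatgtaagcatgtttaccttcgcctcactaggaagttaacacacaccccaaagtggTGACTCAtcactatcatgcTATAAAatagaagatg
Mmp7, chr9:7691960-7692089 (+ strand): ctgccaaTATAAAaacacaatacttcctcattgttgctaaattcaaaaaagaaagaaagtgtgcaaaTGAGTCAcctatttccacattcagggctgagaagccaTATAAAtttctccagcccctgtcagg
Mmp8, chr9:7558299-7558428 (+ strand): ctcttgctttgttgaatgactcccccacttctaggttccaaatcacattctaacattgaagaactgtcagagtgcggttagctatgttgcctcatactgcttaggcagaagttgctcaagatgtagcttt
In Mmp10 and Mmp7 the AP-1 letters began 63 bases before the start, in Mmp3 46 bases and in Mmp13 35 bases. For Mmp7 the start meant here is its first, and the window before a later start held neither AP-1 nor TATA letters. The TATA letters nearest the start began 29, 26, 7 and 16 bases before it in Mmp10, Mmp7, Mmp3 and Mmp13, and Mmp7 held a second copy 123 bases before it. Mmp8, printed for contrast, held neither in its 250 bases upstream.

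Upstream windows of 250 bases were matched for 8 of the 10 genes, Mmp2 and Mmp9 not among them. AP-1 letters occurred in 5 of the 8, against 5.16% of 27025 genes with a window, and TATA letters in 4 of the 8, against 8.94%. The fifth gene with AP-1 letters was Mmp12, which held them 44 bases before an alternative start inside the gene and not before its first start. Mmp7 was counted by its first start, since it held neither set of letters before its later start. Mmp14, Mmp8 and Timp1 held neither set of letters. A match of letters is a description and does not show that a factor was bound. The neighbouring genes are related copies, so their matches are not independent of each other.

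Trim58 itself read 5.12 ± 0.09 in wild type and 5.05 ± 0.24 in knockout (log2, SD, n = 4 each; limma adjusted p = 0.839), so its probe set did not check the genotype labels. The labels give no scan date or batch. Knockout replicates 1, 2 and 4 stood apart from every other array in carrying pancreatic enzyme RNA. The mean of 12 measured acinar genes was 10.84, 11.80 and 11.54 there, 5.85 in knockout replicate 3 and between 6.07 and 6.21 in wild type (log2). All 12 acinar genes had differences above 0 (0 calls at adjusted p under 0.05 and 11 higher at unadjusted p under 0.05, limma). Without knockout replicate 3, 11 of them were called higher, in a fit that called 172 of all 22180 genes higher. Each protease is therefore given below with its shift in knockout replicate 3, the knockout array without that signal. The mean of 10 colon epithelium markers was between 11.11 and 11.40 on every array, so the labelled tissue's markers were present, with 0 calls (0 also at unadjusted p under 0.05, limma). In RNA of whole tissue, a change in the number of cells of a type and a change in RNA per cell cannot be told apart.

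All 10 genes had higher means in the knockout. Of these, 6 rose past an adjusted p of 0.05 in limma, with Benjamini-Hochberg adjustment over the 22180 genes: Mmp7, Mmp8, Mmp9, Mmp10, Mmp13 and Mmp14. None fell. Over all genes tested, 0.392% were called higher and 0.185% lower. In 9 of the 10 the 4 knockout arrays lay above the 4 wild type arrays with no overlap, the exception being Mmp12. Over all genes, 3.79% had every knockout array above every wild type array and 5.02% every knockout array below. The median difference of the 10 was 1.57 on the log2 scale, and that of all genes -0.01. At an unadjusted limma p under 0.05, 9 of the 10 were higher. Of all 22180 genes, 1379 were higher and 1797 lower at that unadjusted p, the background for the unadjusted counts given below. The count of 6 fell to 2 without wild type replicate 2, to 3 without knockout replicate 1 and to 2 without knockout replicate 2, and was 8 without knockout replicate 3. With the acinar marker mean as a covariate it was 0 (8 at unadjusted p under 0.05, limma), and 3 of all 22180 genes were called. With knockout replicate 3 as the only knockout the median difference of the 10 was 1.21 (log2). Mmp7 and Mmp8 passed in each of the 8 fits that left out 1 array. Calls over all genes moved as well, from 87 higher and 41 lower with all 8 arrays. They were 24 higher and 1 lower without wild type replicate 2, and 46 and 9 without knockout replicate 1. Without knockout replicate 2 they were 36 and 7, and without knockout replicate 3 they were 172 and 80. The acinar mean was high only among knockouts, so the acinar covariate overlaps genotype. The fit with it cannot separate acinar signal from genotype.

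**Figure D1:**
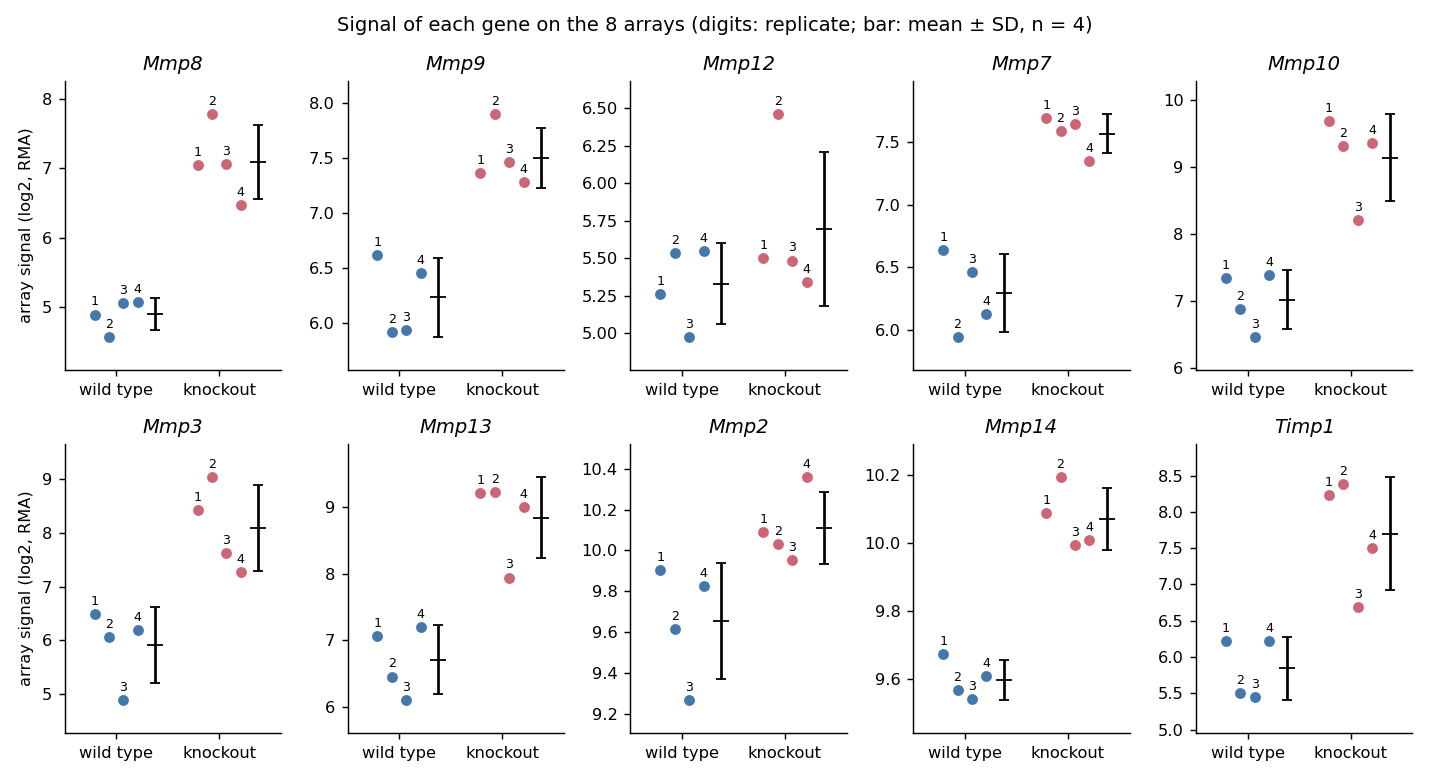
Array signal (log2) of each of the 10 genes in the 4 wild type (blue) and 4 knockout (red) mice, digits giving the replicate and bars the mean ± SD (n = 4); each panel has its own axis. The genotypes do not overlap except for Mmp12, and knockout replicate 3 is the lowest knockout for Mmp2, Mmp10, Mmp13, Mmp14 and Timp1.

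The collagenases Mmp8 and Mmp13, which cut intact fibrillar collagen, were both over 4-fold higher. Mmp8, the collagenase that neutrophils store in specific granules, read 4.89, 4.57, 5.06 and 5.07 in wild type replicates 1 to 4 and 7.04, 7.78, 7.07 and 6.48 in knockout replicates 1 to 4. Its lowest knockout value stood 1.41 above its highest wild type value, a wider gap than for any of the other 9 genes. Mmp8 increased 4.57-fold, by 2.19 ± 0.23 (SE) on the log2 scale (adjusted p = 0.00459, limma). Knockout replicate 3 exceeded the wild type mean by 2.17 and the remaining knockouts by a mean of 2.20, so the increase was as large in the array without pancreatic signal.

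Mmp13, the collagenase of stromal cells and the main interstitial collagenase of mice, read 7.06, 6.45, 6.11 and 7.20 in wild type and 9.20, 9.22, 7.94 and 9.00 in knockout replicates 1 to 4. Knockout replicate 3 lay about midway between wild type and the other knockouts. Its signal increased 4.38-fold, by 2.13 ± 0.31 (SE) on the log2 scale (adjusted p = 0.0186, limma). Knockout replicate 3 exceeded the wild type mean by 1.23, and the arrays with acinar RNA did so by a mean of 2.43. What part that signal has in the difference was not tested. The call was lost without wild type replicate 2 (adjusted p = 0.0842), knockout replicate 1 (0.0639) or knockout replicate 2 (0.0655).

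Of the gelatinases, which degrade denatured collagen and type IV collagen of basement membranes, Mmp9 rose and Mmp2 did not pass. Mmp9, held in the gelatinase granules of neutrophils and inducible in macrophages, read 6.62, 5.91, 5.94 and 6.45 in wild type and 7.36, 7.89, 7.46 and 7.28 in knockout replicates 1 to 4. Each knockout exceeded each wild type array, and the knockouts lay within 0.61 of each other. Mmp9 increased 2.41-fold, by 1.27 ± 0.18 (SE) on the log2 scale (adjusted p = 0.0186, limma) and by 1.23 in knockout replicate 3 alone, against a mean of 1.28 over the remaining knockouts. The call was lost without wild type replicate 2 (adjusted p = 0.0738) or knockout replicate 2 (0.0515).

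Mmp2, the gelatinase that fibroblasts make constitutively, read 9.91, 9.62, 9.27 and 9.83 in wild type and 10.09, 10.03, 9.95 and 10.36 in knockout replicates 1 to 4. The groups were separate by only 0.04, between wild type replicate 1 and knockout replicate 3. The log2 difference was 0.45 (95% interval 0.13 to 0.77, limma adjusted p = 0.175). Knockout replicate 3 was 0.30 above the wild type mean and the remaining knockouts 0.51.

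The stromelysins Mmp3 and Mmp10 cut proteoglycans, laminin and fibronectin and can activate other pro-MMPs. Mmp10, which is known from epithelial cells migrating at wound edges, read 7.35, 6.89, 6.47 and 7.39 in wild type and 9.69, 9.32, 8.21 and 9.36 in knockout replicates 1 to 4. As for Mmp13, knockout replicate 3 was the lowest knockout yet still 0.81 above the highest wild type array. Mmp10 increased 4.35-fold, by 2.12 ± 0.31 (SE) on the log2 scale (adjusted p = 0.0180, limma). Knockout replicate 3 exceeded the wild type mean by 1.18 and the arrays with acinar RNA by a mean of 2.43, and the part of that RNA in the difference was not tested. The adjusted p was 0.0821, 0.0517 and 0.0655 without wild type replicate 2, knockout replicate 1 and knockout replicate 2.

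Mmp3, the stromelysin of fibroblasts, read 6.49, 6.07, 4.90 and 6.19 in wild type and 8.41, 9.03, 7.63 and 7.26 in knockout replicates 1 to 4. The knockouts were all higher, with knockout replicate 2 at the top and wild type replicate 3 at the bottom. Knockout replicate 3 exceeded the wild type mean by 1.71 and lay between knockout replicates 4 and 1. The log2 difference of 2.17 (95% interval 1.26 to 3.08) was close to that of Mmp8, but it narrowly missed the threshold (limma adjusted p = 0.0516), since its SD was 0.70 in wild type and 0.79 in knockout. It passed without knockout replicate 3 (adjusted p = 0.0441) and without knockout replicate 4 (0.0439). Mmp3 and Mmp10 encode similar proteins, and whether RNA of one hybridised to probes of the other was not tested. The profiles of this pair differed by 0.54 (root mean square over the 8 arrays, each gene centred on its wild type mean).

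Mmp7, or matrilysin, a small MMP of secretory epithelium that activates defensins in Paneth cells, read 6.64, 5.94, 6.46 and 6.13 in wild type and 7.70, 7.59, 7.64 and 7.35 in knockout replicates 1 to 4. The knockout arrays were the most alike of any of the 10 genes except Mmp14, with an SD of 0.15 against 0.31 in wild type. Mmp7 increased 2.42-fold, by 1.28 ± 0.15 (SE) on the log2 scale (adjusted p = 0.00622, limma), and knockout replicate 3 (1.35 above the wild type mean) matched the mean of the remaining knockouts (1.25). A second Mmp7 probe set, much dimmer, read 3.69 on average in wild type and 3.88 in knockout (log2). With the mean of both probe sets the log2 difference was 0.73 and Mmp7 kept its call. None of 6 measured Paneth cell markers was called (0 also at unadjusted p under 0.05, limma), and their median difference was -0.18. Their signals were low: only 3 of the 6 remained when the 33.3% of genes with the lowest mean were left out. The source of the Mmp7 signal was not tested.

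Mmp12, the elastase of macrophages, was the gene of the 10 with overlapping groups. It read 5.26, 5.53, 4.98 and 5.55 in wild type and 5.50, 6.46, 5.48 and 5.34 in knockout replicates 1 to 4. Only knockout replicate 2 stood above the wild type range. The log2 difference was 0.37 (95% interval -0.15 to 0.88, limma adjusted p = 0.531), and 0.11 without knockout replicate 2. Knockout replicate 3 was 0.16 above the wild type mean.

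Mmp14, a membrane-anchored MMP that activates pro-Mmp2 at the cell surface, read 9.67, 9.57, 9.54 and 9.61 in wild type and 10.09, 10.19, 9.99 and 10.01 in knockout replicates 1 to 4. Its difference was small and even, and the SD was 0.06 in wild type and 0.09 in knockout. Mmp14 increased 1.39-fold, by 0.47 ± 0.08 (SE) on the log2 scale (adjusted p = 0.0299, limma). Knockout replicate 3 was 0.39 above the wild type mean and the remaining knockouts 0.50. In the 8 fits without 1 array the log2 difference lay between 0.43 and 0.50, but the call depended on the array left out. The call was kept without wild type replicate 1 or knockout replicate 3. In the other 6 fits the adjusted p lay between 0.0536 and 0.123 (limma).

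**Figure D2:**
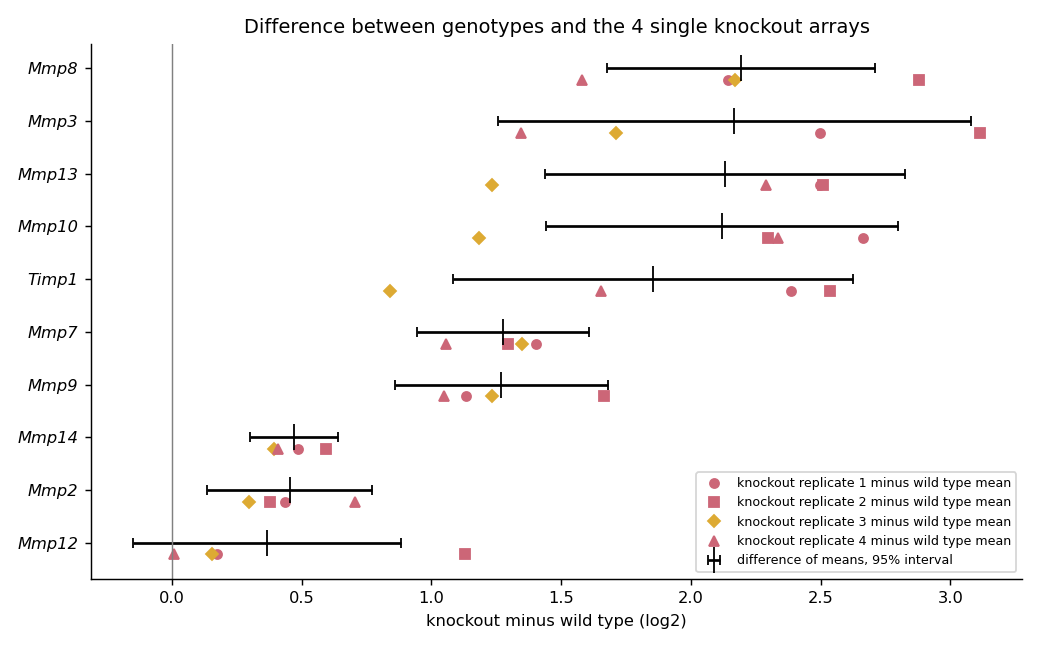
Knockout minus wild type (log2) for each gene, with the 95% interval of limma and, below each, the shift of every knockout array from the wild type mean; knockout replicate 3, without pancreatic signal, is the yellow diamond. It falls below the other knockouts for Mmp10 (1.18), Mmp13 (1.23), Timp1 (0.84), Mmp2 (0.30) and Mmp14 (0.39), and among them for Mmp8 (2.17), Mmp3 (1.71), Mmp9 (1.23), Mmp7 (1.35) and Mmp12 (0.16).

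Timp1, which blocks most secreted MMPs and is itself induced by inflammatory cytokines, read 6.22, 5.50, 5.45 and 6.22 in wild type and 8.24, 8.38, 6.69 and 7.50 in knockout replicates 1 to 4. No knockout value overlapped wild type, but the knockouts spread over 1.69 log2 units. The log2 difference was 1.85 (95% interval 1.08 to 2.62, a 3.62-fold difference of means) and missed the threshold (limma adjusted p = 0.0516). Without knockout replicate 3 it was 2.19 and passed (adjusted p = 0.00370). Knockout replicate 3 exceeded the wild type mean by 0.84 and the arrays with acinar RNA by a mean of 2.19, the widest contrast between these arrays among the 10 genes. The part of acinar RNA in it was not tested.

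Whether a protease shifted by a different amount than Timp1 was examined within arrays, as log2 MMP minus log2 Timp1. The test was two-sided exact permutation (70 ways to assign the arrays). Such a difference shows unequal change of RNA signal only, not a balance of enzyme and inhibitor. Relative to Timp1, Mmp2, Mmp12 and Mmp14 were lower in each of the 4 knockouts than in each wild type array, by -1.40, -1.49 and -1.38 on the log2 scale. For each of these the exact p was 0.0286, the smallest this design can give, and 0.0857 after Benjamini-Hochberg adjustment over the 9 MMPs. In knockout replicate 3 Mmp2, Mmp12 and Mmp14 shifted by 0.30, 0.16 and 0.39 from wild type, against 0.84 for Timp1. The contrast was narrower there than on the arrays with acinar RNA, where Timp1 shifted by 1.65 to 2.53. The part of acinar RNA in it was not tested. None of the 9 passed an adjusted 0.05 and 3 had an unadjusted p under 0.05 (exact permutation). With 9 comparisons at that smallest p, at least 6 would have to reach it for any to pass. Mmp10 and Mmp13 followed Timp1 closely, with differences of 0.27 and 0.28 (exact permutation p = 0.286 and 0.2). Mmp3 and Mmp8 differed from it by 0.31 and 0.34, and Mmp7 and Mmp9 by -0.58 each (exact p between 0.143 and 0.514). These means hide a contrast between arrays. In knockout replicate 3 Timp1 shifted by 0.84, less than Mmp7 (1.35), Mmp9 (1.23) or Mmp8 (2.17). In knockout replicates 1, 2 and 4 Mmp7 and Mmp9 shifted less than Timp1. For Mmp9 minus Timp1, 3 knockouts lay below the wild type minimum and 1 above the maximum.

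**Figure D3:**
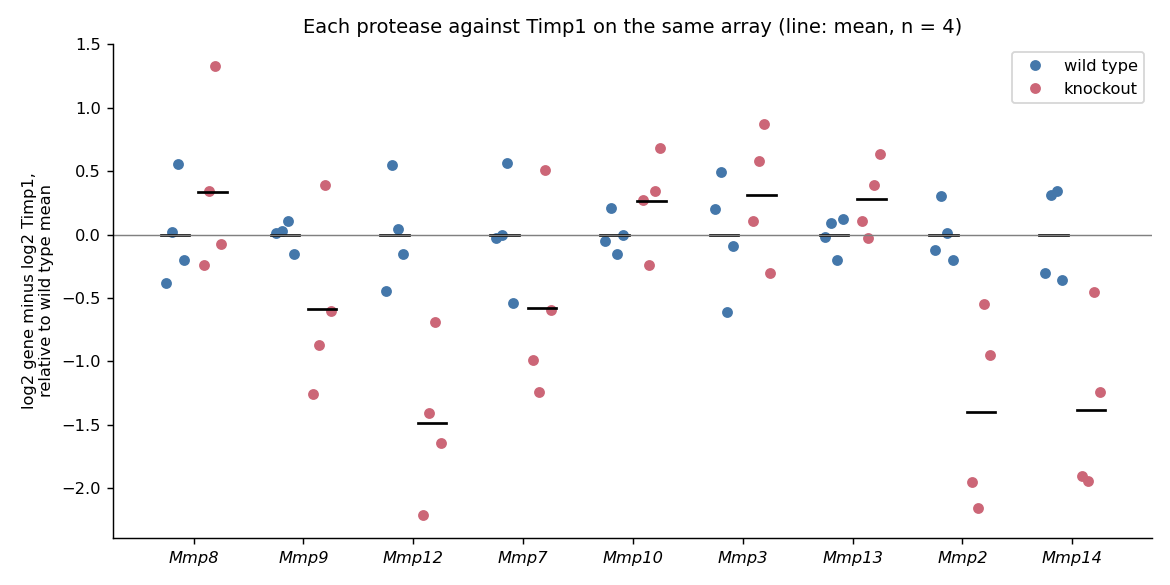
Log2 signal of each MMP minus that of Timp1 on the same array, set to 0 at the wild type mean, for wild type (blue) and knockout (red), with the mean as a line (n = 4 each). Mmp2, Mmp12 and Mmp14 lie lower in the knockouts with no overlap, with mean differences of -1.38 to -1.49, whereas Mmp8, Mmp10, Mmp3 and Mmp13 overlap around 0. For Mmp2, Mmp3, Mmp7, Mmp8, Mmp9, Mmp12 and Mmp14 the highest knockout value is that of knockout replicate 3.

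Among the 45 pairs of the 10 genes, the most alike profiles were those of Mmp10 and Mmp13, which differed by 0.12 (root mean square over 8 arrays, log2), although they belong to different subfamilies. Mmp2 and Mmp14 followed at 0.20, then Mmp7 and Mmp9 at 0.27 and Mmp13 and Timp1 at 0.28. The distance is not scaled to the size of the shifts, so genes with small shifts lie close. The profile of Mmp14 itself had a root mean square of 0.34, against 1.57 for Mmp10. The least alike pair was Mmp2 and Mmp3, at 1.36. Knockout replicate 2 was the highest knockout for 7 genes (Mmp3, Mmp8, Mmp9, Mmp12, Mmp13, Mmp14 and Timp1). Knockout replicate 3 was the lowest for Mmp2, Mmp10, Mmp13, Mmp14 and Timp1, and knockout replicate 4 for Mmp3, Mmp7, Mmp8, Mmp9 and Mmp12. In wild type, replicate 3 was lowest for 7 genes: Mmp2, Mmp3, Mmp10, Mmp12, Mmp13, Mmp14 and Timp1. That array was also the lowest of the 8 in the mean of 10 fibroblast markers (8.47, against 8.82 to 9.21 on the other arrays) and of 10 macrophage markers (7.65, against 8.10 to 8.70). The part of these cell types in the low protease values was not tested.

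Outside the 10 genes, the closest profiles to Mmp8 were those of Cxcr2, a chemokine receptor of neutrophils (root mean square difference 0.31), Tarm1, an activating receptor of myeloid cells (0.33), and Il1a (0.36). For Mmp9 they were Itgam, an integrin of neutrophils and macrophages (0.14), Csf3r, the receptor for the neutrophil growth factor G-CSF (0.16), and Trim30b (0.20). Mmp10 and Mmp13 shared their 3 closest genes, Lcn2, Cxcl5 and Il6, at 0.28 to 0.36. Lcn2 encodes a siderophore-binding protein, Cxcl5 a neutrophil attractant and Il6 a cytokine. Mmp7 was closest to Mcemp1 (0.26), Sirpb1c (0.27) and the adenylate kinase gene Ak4 (0.28). Mmp14 was closest to Rrm2, a ribonucleotide reductase subunit (0.05), the lipid enzyme gene Acsl4 (0.07) and Rgs16 (0.07), which is a near match of small shifts. These distances were computed over 8 arrays with both genotypes and describe likeness only.

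Markers of the cell types that could supply these proteases were examined on the same arrays. Of 12 measured neutrophil markers, 7 rose and none fell (median difference 1.43; 9 higher at unadjusted p under 0.05, limma). The count was 3 with the acinar marker mean as a covariate, a fit that called 3 of all 22180 genes. The 4 with the smallest p were the calprotectin genes S100a9 and S100a8, at 8.64-fold and 9.20-fold, Stfa2l1, a stefin A-like gene, at 7.19-fold, and Cxcr2 at 4.75-fold (limma adjusted p between 0.000233 and 0.00424). The mean of the list was 5.47 to 5.84 in wild type and 6.92, 7.46, 7.28 and 6.88 in knockout replicates 1 to 4, so the shift in knockout replicate 3 (1.63) was among those of the other knockouts. Their part in the protease differences was not tested. Granule genes that neutrophils transcribe as precursors were mixed. Ngp rose by 0.76 on the log2 scale (adjusted p = 0.0314, limma), while Ltf, Mpo and Camp differed by 0.36, 0.04 and -0.10 (adjusted p = 0.291, 0.878 and 0.663, limma; Ltf was higher at unadjusted p = 0.0324). The surface marker Ly6g differed by -0.36 (adjusted p = 0.621, limma). Of the neutrophil proteases that activate MMPs, Elane and Ctsg had differences of -0.01 and -0.13 (adjusted p = 0.972 and 0.454, limma). Every knockout array lay below every wild type array for Ctsg, as for 5.02% of all genes.

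Fibroblast markers had a median difference of 0.20 over 10 genes, with 0 calls (3 higher at unadjusted p under 0.05, limma). Their mean was 8.47 to 8.95 in wild type and 8.82 to 9.21 in knockout, and the lowest knockout was replicate 3. Macrophage markers had a median difference of 0.32 over 10 genes, also with 0 calls (2 higher at unadjusted p under 0.05, limma), and means of 7.65 to 8.68 and 8.22 to 8.70. The 6 smooth muscle markers had a median difference of -0.37 and the 6 posterior gut Hox genes, which mark position along the bowel, of -0.23, with 0 calls in either list (4 lower at unadjusted p under 0.05 in each, limma). The Hox mean shifted by -0.65, -0.50, -0.23 and -0.01 in knockout replicates 1 to 4. In replicate 4 this mean rested on Hoxd13, at 7.86 against a wild type mean of 6.73, while the other 5 Hox genes were below their wild type means. What part these shifts have in the protease differences was not tested.

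**Figure D4:**
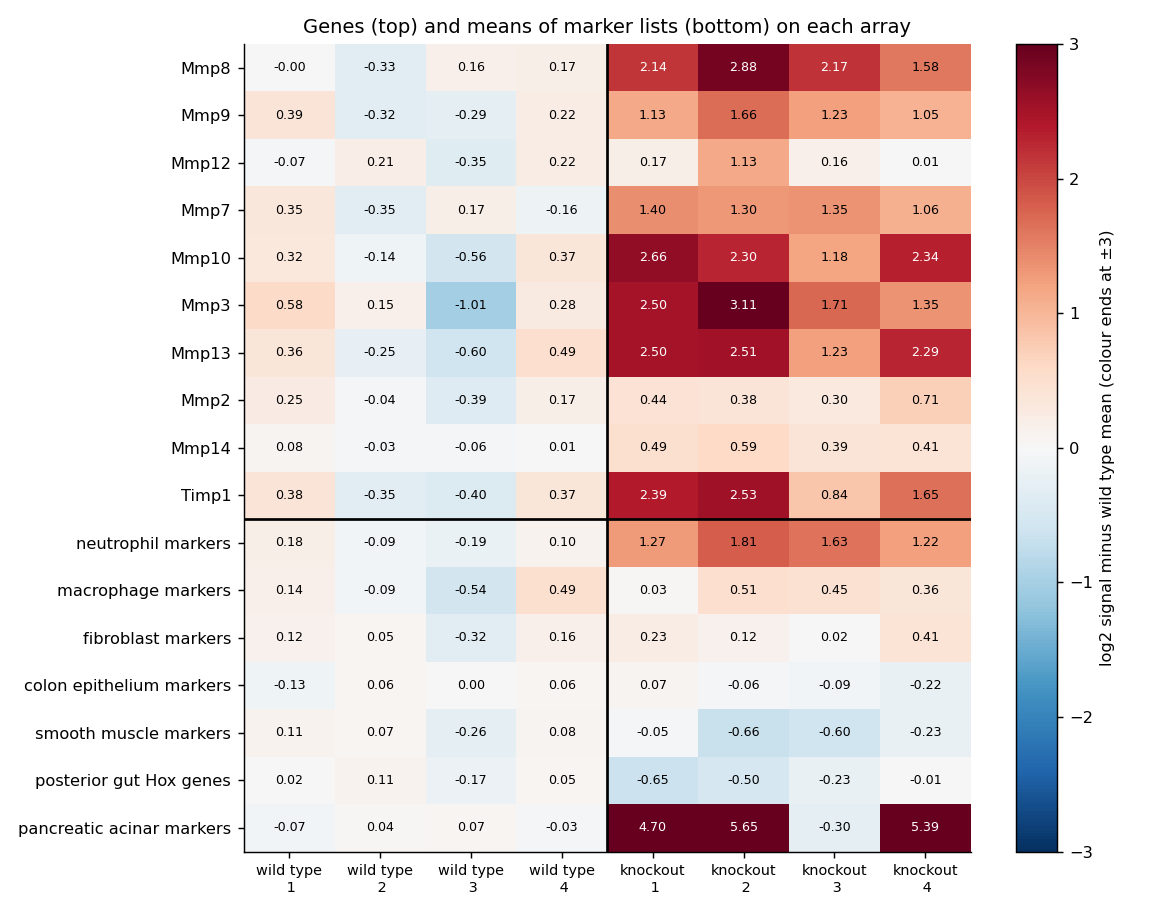
Each gene (top) and the mean of each marker list (bottom) on the 8 arrays, as log2 signal minus the wild type mean. Mmp3, Mmp7, Mmp8, Mmp9, Mmp10 and Mmp13 and the neutrophil markers stand at 1.05 to 3.11 in all 4 knockouts and Timp1 at 0.84 to 2.53, while pancreatic acinar markers are raised by 4.70, 5.65 and 5.39 in knockout replicates 1, 2 and 4 and stand at -0.30 in replicate 3.

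The rest of the MMP family showed small differences. Of 13 other measured MMPs, 0 were called in either direction (3 higher at unadjusted p under 0.05, limma), with a median difference of 0.13 and a range of -0.02 to 0.36. The smallest p was that of Mmp28, an epithelial MMP, which differed by 0.34 on the log2 scale (adjusted p = 0.180, limma). Within the chromosome 9 run, Mmp1b, Mmp1a, Mmp27 and Mmp20, which lie between the shifted genes, had log2 differences of 0.01, 0.06, 0.20 and 0.20, with signals that averaged between 2.40 and 5.41 in either genotype. RMA is known to compress differences at low signal. This limit also applies to others of the 13, of which 7 remained when the 33.3% of genes with the lowest mean were left out.

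None of the other inhibitors passed the test. Of 6 further MMP inhibitors, 0 were called (1 higher and 1 lower at unadjusted p under 0.05, limma). Timp2, Timp3 and Timp4, the other TIMPs, had log2 differences of 0.16, 0.21 and -0.46, and Reck, a membrane-bound inhibitor, of -0.08. A2m, the protease-trapping alpha-2-macroglobulin, had the smallest p of this list (log2 difference 0.77, limma adjusted p = 0.200). Among 9 measured genes for MMP activation and the plasmin system, 0 were called (3 higher at unadjusted p under 0.05, limma), the smallest p being that of Plaur, the urokinase receptor (log2 difference 0.95, limma adjusted p = 0.0995).

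Of 14 measured ADAM and ADAMTS proteases, relatives of the MMPs that shed surface proteins or cut proteoglycans, 1 rose and none fell (8 higher and 1 lower at unadjusted p under 0.05, limma). This was Adamts1, a secreted proteoglycanase, at 1.76-fold (limma adjusted p = 0.0202), which was joined by Adam12 without wild type replicate 1, and by Adam12 (higher) and Adam15 (lower) without knockout replicate 3. Adamts1 lost its call without wild type replicate 2, wild type replicate 3 or knockout replicate 2. Of 17 matrix proteins that MMPs cut, 1 rose, Col1a2, a chain of type I collagen, at 1.56-fold (limma adjusted p = 0.0396), and none fell (11 higher at unadjusted p under 0.05, limma). Of the 17, 16 had differences above 0, with a median of 0.39, while 10229 of all 22180 genes were above 0. The mean of the list was 0.14 above wild type in knockout replicate 3, inside the range of the wild type arrays. It was 0.50 above wild type over the arrays with acinar RNA, whose part in this was not tested. Without knockout replicate 3, the array without acinar RNA, 6 of the 17 were called higher. These were Col1a2, the type III collagen gene Col3a1, the basement membrane collagen genes Col4a1 and Col4a2, Tnc (tenascin C) and Vcan (versican). Over all genes that fit called 172 higher and 80 lower, against 87 and 41 with all 8 arrays. Of the 17, 2 were called without wild type replicate 1, Col1a2 and Col1a1. With the acinar covariate neither Adamts1 nor Col1a2 was called. Col1a2 kept its call in 2 of the 8 fits without 1 array, those without wild type replicate 1 or knockout replicate 3.

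Of 8 cytokines known to induce MMPs, 3 rose and none fell (6 higher at unadjusted p under 0.05, limma), and all 8 had differences above 0. Il1b was 10.4-fold, Il1a 5.17-fold and Il6 3.48-fold higher (limma adjusted p = 0.00424, 0.0125 and 0.0230), whereas Tnf differed by 0.41 on the log2 scale (adjusted p = 0.614, limma). Il1b kept its call in each fit without 1 array, Il1a lost it without wild type replicate 2, and Il6 kept it in 3 of 8, those without wild type replicate 1, knockout replicate 3 or knockout replicate 4. Without wild type replicate 2, where 24 of all 22180 genes were called higher, the count of 3 therefore fell to 1. With the acinar covariate, where 3 of all genes were called higher, it was 0. Of 9 measured AP-1 and ETS factors, which act on MMP promoters, 0 were called (1 higher and 2 lower at unadjusted p under 0.05, limma). Ets1 had the smallest p, differing by 0.45 on the log2 scale (adjusted p = 0.109, limma), and the median of the list was -0.04.

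**Figure D5:**
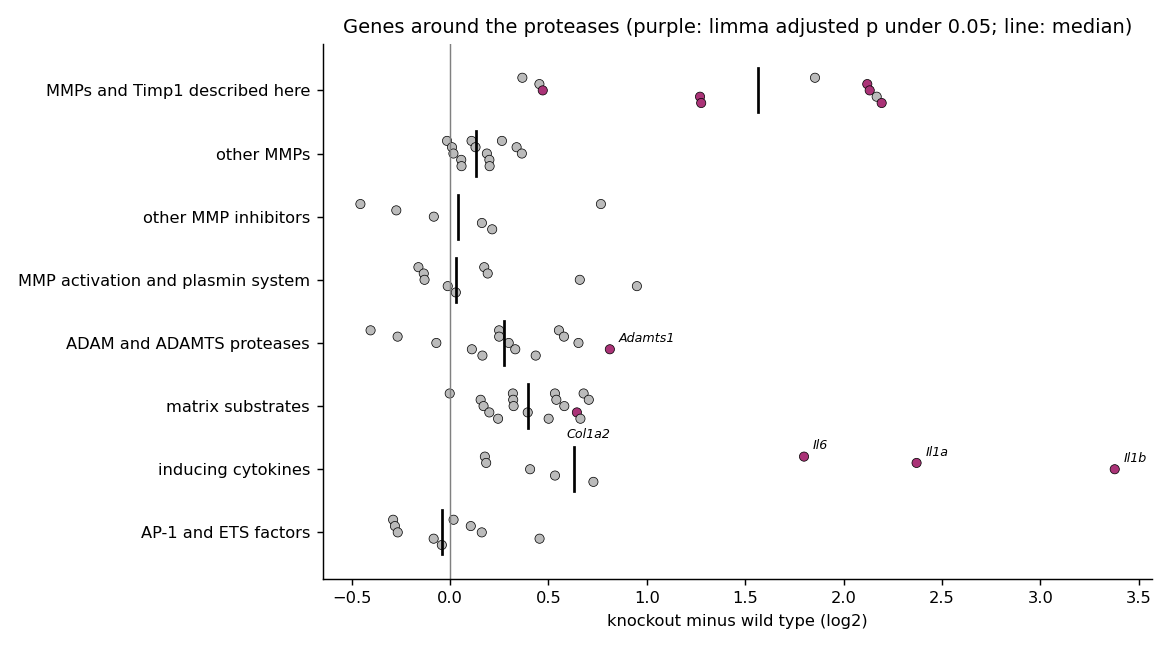
Knockout minus wild type (log2) for the 10 genes and for 7 lists of related genes, each point a gene, purple where the limma adjusted p was under 0.05, and the line the list median. The 10 genes have a median of 1.57, the 13 other MMPs of 0.13 and the AP-1 and ETS factors of -0.04, and the called genes outside the 10 are Adamts1, Col1a2, Il6, Il1a and Il1b.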

How the data were processed

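Total RNA from the middle colon of 8 mice was hybridised to 1 Affymetrix whole-transcript array each; per the labels' protocols 200 ng of RNA was amplified and biotin-labelled. The authors deposited log2 signals made with RMA in Affymetrix Expression Console 1.4, per the submitters' processing notes. RMA corrects background, equalises the arrays' distributions and summarises each probe set, and it compresses differences near background and saturation. Of 41345 probe sets, 23521 had 1 gene symbol in the platform annotation, 1814 several and 16010 none. The 22180 genes with 1 symbol were tested across all genes without a filter, and symbols were updated by Entrez identifier (RefSeq, GRCm38.p6).

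The test between genotypes was limma's moderated linear model (version 3.58.1, under R 4.3.3), with Benjamini-Hochberg adjustment over all genes and a threshold of 0.05. MMP and Timp1 signals were compared by exact permutation. The labels name separate mice. No 2 arrays were identical (correlations 0.972 to 0.989). The scripts were tested on simulated data. Named genes are the 10 members, up to 4 called genes of each pathway list with the smallest p or else the gene with the smallest p, and the 3 closest profiles to each called member, leaving out predicted genes. Other genes of the lists were named after their values were seen. These were further TIMPs, Reck, Tnf, Elane, Ctsg, chromosome 9 neighbours, genes called only in an alternative and single marker genes. The members and lists were chosen with earlier results of these data known.

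Alternatives were another variance model, array weights, other normalizations, a filter on dim genes, the mean of probe sets, a replicate block, a pancreatic covariate and leaving out each array. A fit of knockout replicate 3 alone was added after the data were seen. Promoter windows came from RefSeq (GRCm38.p6), and amino acid sequences were not used here.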

Additional observations from a re-analysis of the deposited data

Results flagged for a closer look

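Mmp12 in knockout replicate 2 stood far from its group, at 6.46 (log2), with the nearest other knockout at 5.50 and the other 3 within 0.16 of each other. That array was also the highest knockout for Mmp8 and Mmp9. 20 groups of 4 arrays were examined in this way, and chance sets apart about 1 in 20.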

How the results depend on the processing

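Of the 10 genes, 6 were called in the analysis as reported. The count was again 6 with a mean-variance trend and robust variance, repeated quantile normalization, equal array medians and the mean of probe sets, and 8 with array weights or without the 33.3% of genes with the lowest mean, where Mmp3 and Timp1 joined. Leaving out 1 array gave 2 to 8 calls among the 10. Calls over all genes in those fits ranged from 24 higher and 1 lower to 172 higher and 80 lower. With the pancreatic acinar mean as a covariate, 0 of the 10 were called in limma (8 at unadjusted p under 0.05) and 3 of all 22180 genes. This covariate was high only among knockouts and overlaps genotype, so that fit cannot separate the acinar signal from genotype. The differences of Mmp8, Mmp9 and Mmp7 were then 2.14, 1.21 and 1.36, and those of Mmp10, Mmp13 and Timp1 were 1.31, 1.33 and 0.96. With knockout replicate 3 alone, added after the data were seen, the median difference moved from 1.57 to 1.21 (log2). In the fits without 1 array the median lay between 1.45 and 1.74. No difference among the 10 changed sign in any fit run. Same-numbered arrays deviated together with correlations of -0.16 to 0.05, so the numbers do not pair the mice. With the replicate block 5 were called, Mmp3 joining and Mmp9 and Mmp14 losing the call. The 4 arrays a group limit the precision of every difference.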
